A study of Mus musculus with 26 samples.

Results

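Toll-like receptors are the innate immune sensors of microbial molecules and of molecules released by dying cells. Here 8 of them (Tlr1, Tlr2, Tlr3, Tlr4, Tlr6, Tlr7, Tlr9 and Tlr13), the co-receptor Cd14 and the adaptor Myd88 were described in degenerating rd10 retina after treatment with inhibitors of chromatin enzymes. These 10 genes were taken by symbol from the 37991 Ensembl genes of the count table, and each symbol matched a single Ensembl identifier. The list was chosen by pathway, with levels and fold changes of these same comparisons already known, so the values below describe these libraries and are not independent evidence for the choice.

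The study asked whether blocking enzymes that condense chromatin protects rods in rd10 mice (B6.CXB1-Pde6brd10/Jrd10), which carry a mutation in Pde6b, the rod phosphodiesterase gene. All mice, controls included, carried this mutation, so no library came from a healthy retina. Treatment by intraperitoneal injection began at PN9 and retinas were collected at PN24, and each inhibitor had its own controls. Whole retinas were sequenced after DZNep, an inhibitor of the histone H3K27 methyltransferase EZH2 (4 control and 2 treated), after UNC1999, another EZH2 inhibitor (3 and 3), after UNC0642, an inhibitor of the H3K9 methyltransferases EHMT1 and EHMT2 (2 and 2), and after the histone deacetylase inhibitor Romidepsin (3 and 3). In the experiment with the LSD1 inhibitor GSK2879552, rods were sorted by EGFP from rd10 mice crossed to B6.Cg-Tg(Nrl-EGFP)1Asw/J, in which the Nrl promoter drives EGFP in rods (2 control and 2 treated). Controls received saline, except that UNC1999 was given in a DMSO-containing diluent and the sources name both saline and diluent for its controls. The titles name the UNC1999 libraries as such, although the treatment label counts up from one library to the next in 2 of them. DZNep was given less often than daily from PN13 per the study's results text, whereas the labels describe daily injection for all inhibitors.

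Toll-like receptors fall into 2 classes by location. Tlr2, with its partners Tlr1 and Tlr6, recognises bacterial lipoproteins at the cell surface, and Tlr4 recognises lipopolysaccharide there with the help of Cd14. Tlr3, Tlr7, Tlr9 and Tlr13 sit in endosomes and recognise double-stranded RNA, single-stranded RNA, unmethylated CpG DNA and bacterial ribosomal RNA, respectively. All of these receptors except Tlr3 signal through Myd88, and the signal ends in NF-kB and interferon regulatory factors. In the retina these receptors are best known from microglia, the resident macrophages that clear dying photoreceptors, although Tlr3 and Tlr4 have also been described in other retinal cells.

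On build NCBIM37 all 10 genes are annotated as protein-coding, and reads were counted over their exons. Tlr1 (ENSMUSG00000044827, chr5:65316050-65324000) and Tlr6 (ENSMUSG00000051498, chr5:65344345-65351287) are neighbours on the minus strand. They share 454 stretches of 50 bases, 17.4% of those in the Tlr1 transcripts and 17.8% of those in Tlr6, so reads could not always be assigned to one of them and both are reported as uncertain. Tlr2 (ENSMUSG00000027995) lies at chr3:83640195-83645689 and Tlr4 (ENSMUSG00000039005) at chr4:66488618-66591318. Tlr3 (ENSMUSG00000031639) lies at chr8:46481019-46495962 and Tlr9 (ENSMUSG00000045322) at chr9:106124929-106129207, and Tlr7 (ENSMUSG00000044583, chrX:163742861-163768490) and Tlr13 (ENSMUSG00000033777, chrX:103338543-103355832) are both on the X chromosome. Myd88 (ENSMUSG00000032508, chr9:119245052-119250529) overlaps an exon of Acaa1a on the opposite strand, with which it shares 19 stretches of 50 bases (0.939%). Whether the counting used strand is not given in the sources used here, so reads in that overlap may belong to either gene. The other 7 genes shared no 50-base stretch with a protein-coding transcript of another gene. Other types of annotated gene were not searched.

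RefSeq promoter windows on GRCm38.p6, from 250 bases before to 50 bases after the annotated start, were examined for 7 of the 10 genes, with none for Tlr4, Tlr7 and Cd14. They are shown for the receptors with the largest changes after Romidepsin and UNC1999 (Tlr9 and Tlr13), for Tlr2, the most abundant receptor of the cell surface in these retinas, and for Myd88, which did not follow the receptors. Capitals mark matches, on either strand, to 4 motifs of factors active in macrophages or downstream of these receptors. The motifs were the PU.1/ETS core GAGGAA, the AP-1 site TGACTCA, the interferon-stimulated response element (a pair of GAAA repeats with any 2 bases between them) and the NF-kB consensus.
Tlr9, chr9:106222348-106222647, plus strand: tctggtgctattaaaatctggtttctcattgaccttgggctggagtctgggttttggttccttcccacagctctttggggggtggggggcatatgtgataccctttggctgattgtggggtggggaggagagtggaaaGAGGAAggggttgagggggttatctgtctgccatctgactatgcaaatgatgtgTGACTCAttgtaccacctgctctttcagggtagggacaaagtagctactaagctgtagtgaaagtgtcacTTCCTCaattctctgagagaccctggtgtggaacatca
Tlr13, chrX:106143025-106143324, plus strand: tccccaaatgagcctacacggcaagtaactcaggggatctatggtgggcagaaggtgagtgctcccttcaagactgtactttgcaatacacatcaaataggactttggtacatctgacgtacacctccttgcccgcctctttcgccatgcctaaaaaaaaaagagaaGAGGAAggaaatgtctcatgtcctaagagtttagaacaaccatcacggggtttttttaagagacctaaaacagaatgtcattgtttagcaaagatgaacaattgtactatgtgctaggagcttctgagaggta
Tlr2, chr3:83841559-83841858, minus strand: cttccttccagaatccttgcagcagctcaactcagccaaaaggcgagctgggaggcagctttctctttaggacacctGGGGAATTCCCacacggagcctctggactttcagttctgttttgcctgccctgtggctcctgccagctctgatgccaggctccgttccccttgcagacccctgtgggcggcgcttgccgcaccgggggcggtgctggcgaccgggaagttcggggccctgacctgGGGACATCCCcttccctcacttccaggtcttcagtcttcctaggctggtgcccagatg
Myd88, chr9:119339969-119340268, minus strand: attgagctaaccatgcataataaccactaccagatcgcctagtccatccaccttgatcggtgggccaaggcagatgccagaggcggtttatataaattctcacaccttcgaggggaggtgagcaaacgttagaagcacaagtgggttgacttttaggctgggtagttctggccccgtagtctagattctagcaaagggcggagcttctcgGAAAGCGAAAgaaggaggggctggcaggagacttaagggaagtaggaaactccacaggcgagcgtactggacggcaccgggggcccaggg

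The Tlr9 window held 2 PU.1/ETS cores and 1 AP-1 site, and the Tlr13 window held 1 PU.1/ETS core. The Tlr2 window held the NF-kB consensus at 2 places, the first with overlapping matches, and the Myd88 window held 1 interferon-stimulated response element. Of 32851 promoter windows of this length, 28.3% held the PU.1/ETS core, 5.2% the AP-1 site, 3.44% the interferon-stimulated response element and 4.51% the NF-kB consensus. A PU.1/ETS core is thus a common match. These matches describe letters in a window, and binding was not measured.

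Between 13732959 and 36354094 reads were counted on genes in the retina libraries and between 7289460 and 19864491 in the sorted rods. Levels are given as CPM, the count of a gene relative to the count of its library scaled by TMM factors, on which scale 3 counts equal 0.0897 to 0.229 CPM in retina and 0.156 to 0.401 CPM in rods. Rod markers summed to 8187 to 69897 CPM in the retinas. The UNC0642 controls, whose rod markers reached only 8187 and 8312 CPM, stood apart from the other controls, where the sum was at least 14738 CPM. All 16 microglia markers (Aif1, Cx3cr1, Csf1r and others) were detected in every retina, with sums of 304 to 1095 CPM in controls and 194 to 712 CPM after treatment. In bulk retina, fewer cells of a type and less RNA per cell cannot be told apart.

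In the 12 control retinas Myd88 was the most abundant of the 10 transcripts, and per kilobase of exon its median level was 7.10 CPM. Tlr3, the sensor of double-stranded RNA, came next at a median of 3.18 CPM per kilobase, followed by Tlr2 at 1.87 and Cd14 at 1.17. The medians per kilobase of Tlr7 (0.973), Tlr13 (0.816), Tlr9 (0.612), Tlr4 (0.494) and Tlr1 (0.441) lay close together, and Tlr6 was lowest at 0.153 CPM per kilobase. Within a library and per kilobase, Myd88 was above Tlr3 and Tlr1 above Tlr6 in 12 of 12 controls, and Cd14 was above Tlr7 in 11. On the same scale, the order of neighbours in the middle was not fixed. Tlr7 was above Tlr13 in 7 of 12 libraries, Tlr13 above Tlr9 in 8, Tlr9 above Tlr4 in 7 and Tlr4 above Tlr1 in 8.

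Levels also differed between the 12 control retinas, which came from 4 experiments. The ratio of the highest to the lowest control CPM was 2.34 for Tlr4 and 2.66 for Myd88, but 9.58 for Tlr2, 11.6 for Tlr13 and 12.1 for Tlr9. The first UNC0642 control was the highest of the 12 for 8 of the 10 genes, the exceptions being Tlr2, highest in the first UNC1999 control at 24.1 CPM, and Tlr6, highest in the second Romidepsin control at 1.04 CPM. Each treatment was therefore compared only with the controls of its own experiment. The 4 Toll-like receptors outside the list were near the detection limit in control retinas, with 6 to 21 counts of Tlr5, 2 to 28 of Tlr8, 0 to 3 of Tlr11 and 2 to 28 of Tlr12.

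**Figure D1:**
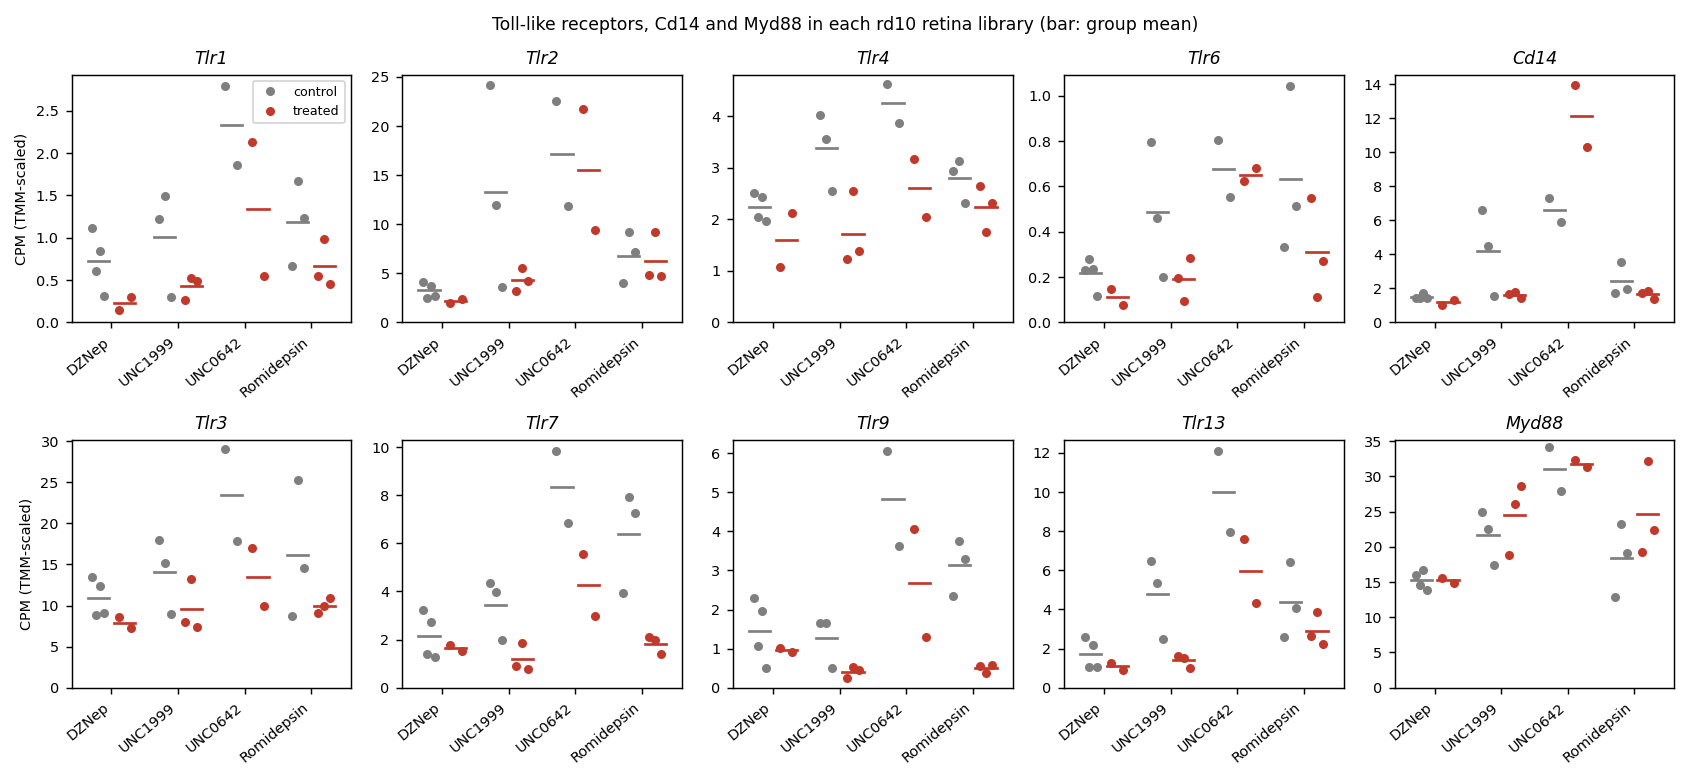
Each panel plots the CPM (TMM-scaled, linear axis from 0) of 1 gene in every retina library by experiment, controls in grey and treated in red, with a bar at the group mean. All 8 receptors have lower group means after each of the 4 inhibitors, Tlr7 and Tlr9 lie below all their controls after Romidepsin, Cd14 lies above its controls after UNC0642, and Myd88 lies within or above the range of its controls.

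After Romidepsin, Tlr7 and Tlr9, sensors of single-stranded RNA and CpG DNA in endosomes, were downregulated. The other endosomal receptors, Tlr3 and Tlr13, did not pass the test, and neither did the surface receptors that could be tested. Tlr9 was at 2.34, 3.76 and 3.29 CPM in the 3 controls (35, 72 and 64 counts) and at 0.551, 0.385 and 0.591 CPM in the 3 treated retinas (10, 7 and 13 counts). The groups did not overlap, and the mean fell from 3.13 ± 0.722 to 0.509 ± 0.109 CPM (SD, n = 3 each), a log2 fold change of -2.61 (SE 0.311, adjusted p = 0.0269, edgeR quasi-likelihood test with Benjamini-Hochberg adjustment over 16049 genes). Tlr7 was at 3.95, 7.94 and 7.24 CPM in controls (59, 152 and 141 counts) and at 2.09, 1.98 and 1.41 CPM after Romidepsin (38, 36 and 31 counts). Its groups did not overlap either, and the mean fell from 6.38 ± 2.13 to 1.83 ± 0.367 CPM, a log2 fold change of -1.82 (SE 0.306, adjusted p = 0.0446 by the same test). These were 2 of the 9 genes of the list that could be tested, against 0.156% of all genes called lower in this comparison, and the same 2 were the only ones whose treated libraries were all below all controls, which 12.1% of all genes showed.

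Leaving out 1 library ended both calls in 3 of 6 cases. Without the second control the adjusted p was 0.120 for Tlr9 and 0.148 for Tlr7, without the third control 0.112 and 0.144, and without the third treated retina 0.124 and 0.172. The log2 fold changes stayed between -2.77 and -2.44 for Tlr9 and between -2.07 and -1.63 for Tlr7 when any 1 library was left out. A block for replicate number kept the call of Tlr9 and ended that of Tlr7. With all 9 controls of the library series G-981, the 3 own controls among them, Tlr9 was called and Tlr7 was not (log2 fold change -1.47, adjusted p = 0.117).

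The other genes of the list overlapped between Romidepsin and control retinas. At an unadjusted p under 0.05, 9.46% of all genes were lower, and 51.1% had a log2 fold change below 0. Tlr3 was at 8.70, 25.2 and 14.5 CPM in controls and at 9.03, 9.90 and 10.9 CPM after treatment (log2 fold change -0.71, adjusted p = 0.282). Tlr2 differed least among the receptors, with a log2 fold change of -0.14 and an adjusted p of 0.860. Tlr1, Tlr4, Cd14 and Tlr13 had log2 fold changes of -0.88, -0.32, -0.57 and -0.61, with adjusted p from 0.301 to 0.520. Tlr6, with 5, 20 and 10 counts in controls and 10, 2 and 6 after Romidepsin, was too low to be tested. Among receptors outside the list, Tlr8, the neighbour of Tlr7 on the X chromosome, had 3, 16 and 16 counts in controls and 3, 1 and 0 after Romidepsin, and Tlr12 had 14, 16 and 10 against 4, 3 and 1 counts. On the CPM scale neither overlapped between the groups, but both were too low to be tested.

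Markers of other cell types moved with Romidepsin as well. The sum of the microglia markers was 560 to 902 CPM in controls and 461 to 657 CPM in treated retinas, and 15 of 16 had a log2 fold change below 0, with a median of -0.73. Relative to that sum, Tlr9 was at 3.64 to 4.64 CPM per 1000 CPM of microglia markers in controls and at 0.587 to 1.27 after Romidepsin, and Tlr7 was at 7.05 to 9.81 and at 3.02 to 4.54. The groups did not overlap for these 2 genes. For the other 6 receptors and Cd14 the ratio overlapped between groups. Markers of blood monocytes and neutrophils summed to 1.54 to 11.7 CPM in controls and to 1.18 to 3.86 CPM after Romidepsin, with 2 to 4 of 7 markers at 0 counts in a library. The 3 of them that could be tested had log2 fold changes below 0, with a median of -2.33, and 2 had an unadjusted p under 0.05. Rod markers summed to 14738 to 23907 CPM in controls and to 24057 to 31169 CPM after Romidepsin. The part of these cell types in the Tlr7 and Tlr9 values was not tested.

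**Figure D2:**
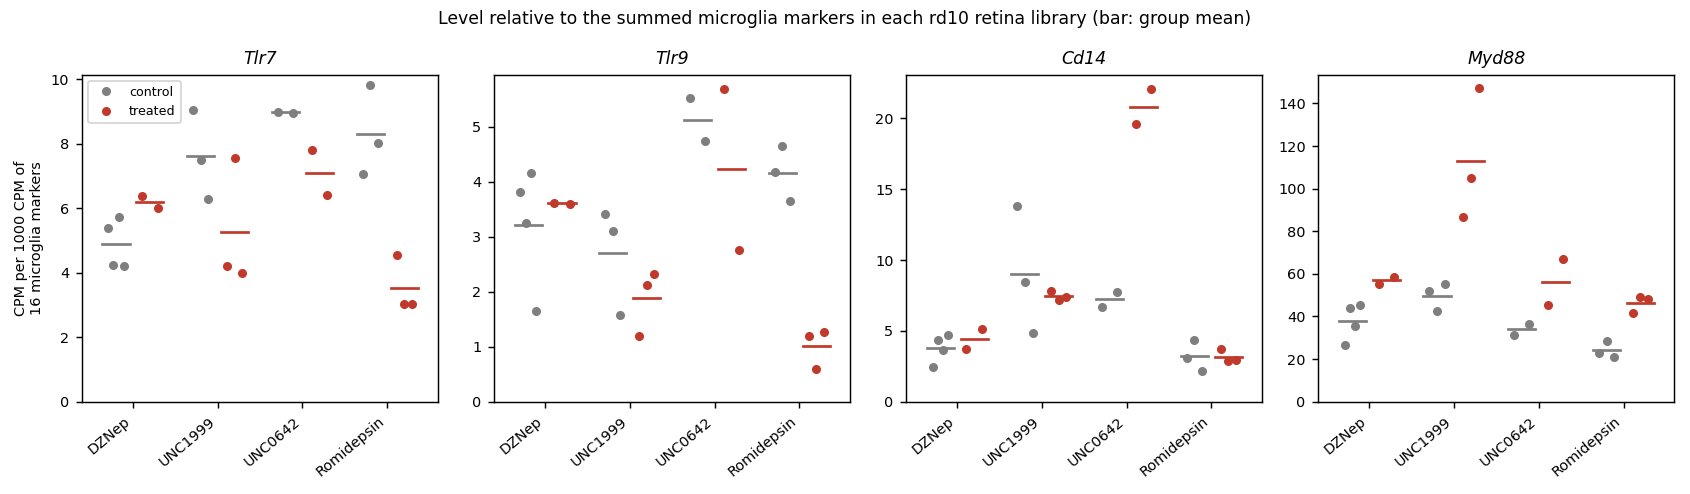
Each point is 1 retina library, and the vertical axis gives the CPM of the gene per 1000 CPM of 16 summed microglia markers (linear from 0, bar at the group mean, controls in grey, treated in red). After Romidepsin, Tlr7 and Tlr9 lay below their controls, after UNC0642 Cd14 lay at 19.6 and 22.1 against 6.68 and 7.76, and Myd88 lay above its controls in all 4 experiments. The marker sum below the ratio was lower on average after each inhibitor.

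After UNC1999 8 of the 9 genes tested had log2 fold changes below 0, where 50.4% of all genes did, but none passed both thresholds in the main test (0 of 9, against 0.368% of all genes in either direction). At an unadjusted p under 0.05, 6 of the 9 were lower, against 11.9% of all 15775 genes tested. The calls depended on the tool and on 1 library. DESeq2 called 3 (Cd14, Tlr7 and Tlr13), and the likelihood ratio test of edgeR, which the study used, called 5 (Tlr2, Cd14, Tlr7, Tlr9 and Tlr13).

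Tlr13, the sensor of bacterial ribosomal RNA, was at 6.47, 5.34 and 2.49 CPM in the UNC1999 controls and at 1.63, 1.54 and 1.02 CPM in the treated retinas. The groups did not overlap, and the log2 fold change was -1.80 (SE 0.377, adjusted p = 0.0582, edgeR quasi-likelihood test). Tlr7 was at 4.35, 3.99 and 2.00 CPM in controls and at 0.910, 1.87 and 0.776 CPM after UNC1999, also without overlap (log2 fold change -1.54, SE 0.410, adjusted p = 0.0825). These were 2 of 9, and 12.9% of all genes had every treated library below every control. For the remaining receptors the third control lay among the treated retinas.

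Tlr2 was at 24.1, 12.0 and 3.59 CPM in controls and at 3.19, 5.53 and 4.21 CPM after UNC1999 (log2 fold change -1.61, SE 0.588, adjusted p = 0.152). Cd14 was at 6.63, 4.49 and 1.55 CPM in controls and at 1.69, 1.78 and 1.43 CPM after UNC1999 (log2 fold change -1.38, SE 0.471, adjusted p = 0.132). In both genes, the first 2 controls were above every treated retina and the third control was not. Tlr9 had 31, 43 and 10 counts in controls and 4, 11 and 11 after treatment, and Tlr1 had 23, 39 and 6 against 4, 11 and 12. Their log2 fold changes were -1.58 (adjusted p = 0.114) and -1.21 (adjusted p = 0.244), and those of Tlr4 and Tlr3 were -0.97 (adjusted p = 0.117) and -0.56 (adjusted p = 0.301). Tlr6 had 15, 12 and 4 counts against 3, 2 and 7 and was not tested.

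Without the third UNC1999 control, 7 genes (Tlr1, Tlr2, Tlr4, Cd14, Tlr7, Tlr9 and Tlr13) passed both thresholds. In that control the microglia markers summed to 317 CPM, against 481 and 532 CPM in the other 2 and 194 to 248 CPM after UNC1999. Markers of blood monocytes and neutrophils summed to 22.6, 5.34 and 1.20 CPM in the 3 controls and to 0.130 to 0.572 CPM in the treated retinas, with 3 to 5 of 7 markers at 0 counts in each library. All 16 microglia markers were lower after UNC1999, their median log2 fold change being -1.15, close to the median of -1.38 of the 9 genes tested, where the median of all genes was -0.00. Relative to the microglia markers, Tlr13 alone of the receptors did not overlap (7.87 to 13.4 CPM per 1000 CPM in controls, 5.26 to 7.51 after UNC1999). Rod markers summed to 20197 to 37925 CPM in controls and to 51888 to 69897 CPM after UNC1999. The part of these cell types in the receptor values was not tested.

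**Figure D3:**
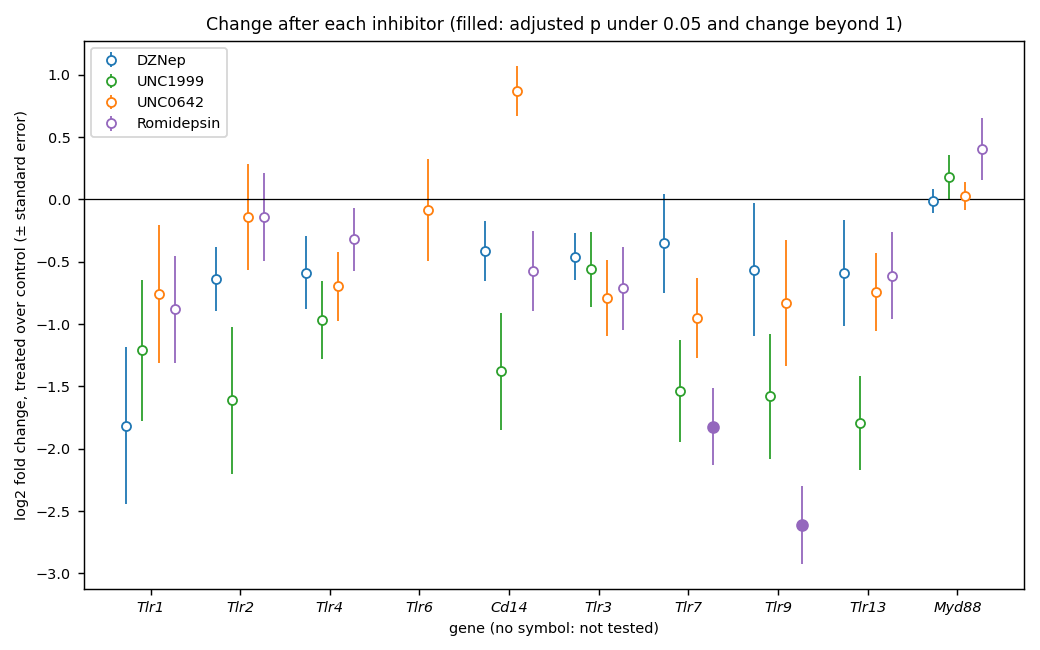
Points give the log2 fold change of treated over control retinas and lines the standard error from the edgeR fit, by gene and inhibitor, with filled points for the calls (Tlr7 and Tlr9 after Romidepsin). The receptors lie below 0 after all 4 inhibitors, Cd14 lies at 0.87 after UNC0642 and below 0 otherwise, and Myd88 lies between -0.01 and 0.41.

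After DZNep all 9 genes tested had log2 fold changes below 0, where 50.1% of all genes did, with a median of -0.57, but again none passed both thresholds (0 of 9 by edgeR's quasi-likelihood test, against 1.71% of all genes, and 0 of the 8 for which DESeq2 gave an adjusted p). At an unadjusted p under 0.05, 3 of the 9 were lower (Tlr1, Tlr2 and Tlr3), against 17.2% of all 16477 genes. Tlr1 had 24, 13, 18 and 8 counts in the 4 controls and 5 and 4 in the treated retinas, a log2 fold change of -1.82 (SE 0.628, adjusted p = 0.0686). Tlr2 was at 4.15, 2.52, 3.75 and 2.71 CPM in controls and at 1.94 and 2.36 CPM after DZNep (log2 fold change -0.64, SE 0.254, adjusted p = 0.104). Tlr3 was at 13.5, 8.82, 12.4 and 9.07 CPM against 8.58 and 7.24 CPM (log2 fold change -0.46, SE 0.190, adjusted p = 0.117). In these 3 genes and in Cd14 both treated retinas were below all controls, 4 of 9 genes where 20.6% of all genes did so.

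Tlr1 passed both thresholds by the likelihood ratio test, with no filter on low counts and without the fourth control, whereas Tlr4 passed them without the second treated retina. That last fit compared a single treated library with 4 controls, so the controls alone gave the spread. Tlr4, Tlr7, Tlr9 and Tlr13 overlapped, with log2 fold changes of -0.59, -0.35, -0.57 and -0.59 and adjusted p from 0.183 to 0.552. Tlr6 had 5, 6, 5 and 3 counts in controls and 5 and 1 after DZNep and was not tested. Microglia markers were lower too, in 16 of 16 cases (median log2 fold change -0.76), and summed to 304 to 598 CPM in controls and to 254 and 281 CPM after DZNep. Relative to them, Tlr7 was higher without overlap (4.20 to 5.73 CPM per 1000 CPM in controls, 6.00 and 6.39 after DZNep), and the other 7 receptors and Cd14 overlapped. Markers of blood monocytes and neutrophils summed to 0.620 to 4.01 CPM in controls and to 0.508 and 0.533 CPM after DZNep, and those of lymphocytes to 0.932 to 1.26 and to 0.152 and 0.239 CPM, both without overlap. These sums were low. In raw counts, those of monocytes and neutrophils were 86, 21, 34 and 16 in controls and 17 and 7 after DZNep. Those of lymphocytes were 20, 27, 24 and 27 against 8 and 2. Of the lymphocyte markers, 0 to 2 of 6 were at 0 counts in a control library and 3 to 5 in a treated one. The 1 marker tested of each had a log2 fold change of -3.04 and -2.31. Rod markers summed to 18092 to 30628 CPM in controls and to 56266 and 57924 CPM after DZNep. The part of these cells in the values of the 10 genes was not tested.

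Among the 4 inhibitors given before whole retinas were sequenced, UNC0642 was the only one after which the mean level of Cd14, the lipopolysaccharide co-receptor, was higher than in controls. On NCBIM37 the gene (ENSMUSG00000051439) lies at chr18:36884728-36886390. Cd14 was at 7.32 and 5.93 CPM in the 2 controls (191 and 118 counts) and at 13.9 and 10.3 CPM in the treated retinas (268 and 152 counts). The groups did not overlap, and the log2 fold change was 0.87 (SE 0.202, unadjusted p = 0.00440, edgeR quasi-likelihood test), but after adjustment over 16321 genes p was 0.299. Without the filter on low counts the adjusted p was 0.00267 at a log2 fold change of 0.86, still under the fold threshold, and over all alternatives the adjusted p of Cd14 ran from 0.00267 to 0.764. In this comparison 27.2% of all genes had every treated library above every control and no gene was called (0%). Relative to microglia markers, Cd14 was at 6.68 and 7.76 CPM per 1000 CPM in controls and at 19.6 and 22.1 after UNC0642.

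The receptors lay in the other direction. Tlr7 was at 9.85 and 6.83 CPM in controls and at 5.56 and 2.99 CPM after UNC0642 (log2 fold change -0.95, SE 0.323, adjusted p = 0.314), and Tlr3 was at 29.1 and 17.8 CPM against 17.0 and 9.99 CPM (log2 fold change -0.79, SE 0.304, adjusted p = 0.331). These 2 genes, Tlr4 and Tlr13 were lower without overlap, 4 of 10 where 24.8% of all genes were. Tlr1, Tlr2, Tlr6 and Tlr9 overlapped, with log2 fold changes of -0.76, -0.14, -0.09 and -0.83. Relative to microglia markers, Tlr7 was lower without overlap (8.95 and 8.99 against 6.40 and 7.81 CPM per 1000 CPM) and Tlr6 higher (0.724 and 0.735 against 0.876 and 1.45). None of the 10 genes was called by the quasi-likelihood test or the likelihood ratio test, DESeq2 gave no adjusted p for them, and 3 were lower (against 6.8% of all genes) and 1 was higher (against 7.95%) at an unadjusted p under 0.05. Log2 fold changes were below 0 in 50.3% of all genes.

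By group mean the UNC0642 controls had the highest receptor levels of the control retinas, and the comparison turned on them. Singly, this held for the first control only. The receptors and Cd14 summed to 60.3 CPM in the second. The highest UNC1999 and Romidepsin controls reached 67.3 and 62.0 CPM. With all 9 controls of series G-981, the own controls among them, Cd14 was called at a log2 fold change of 2.04. In that fit Tlr2 was at 1.05 in place of -0.14 and Tlr13 at 0.43 in place of -0.74, neither called. Microglia markers summed to 1095 and 764 CPM in the own controls and to 712 and 468 CPM after UNC0642, and all 16 were lower (median log2 fold change -0.65). Markers of blood monocytes and neutrophils summed to 41.6 and 14.6 CPM in controls and to 27.2 and 5.44 CPM after UNC0642. Rod markers summed to 8187 and 8312 CPM in controls and to 8541 and 12885 CPM after UNC0642. The part of these cell types in the values of the 10 genes was not tested.

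Differences between the treatments were tested in 1 fit of all 22 retinas, over 6 pairs of inhibitors. None of the 10 genes passed at an adjusted p under 0.05 in any pair by the quasi-likelihood test, where 0.00579%, 0.0116%, 0.0174%, 0.0232%, 0.289% and 5.11% of all 17274 genes did by pair. At an unadjusted p under 0.05, 6 of the 60 differences passed, against 9.45%, 12%, 12.6%, 13.1%, 13.8% and 21.8% of all genes, and by the likelihood ratio test 1 difference was called (Cd14 between UNC1999 and UNC0642). The nearest was Cd14, whose effect was -1.37 after UNC1999 and 0.87 after UNC0642, a difference of -2.24 on the log2 scale (SE 0.530, unadjusted p = 0.000462, adjusted p = 0.181). For Tlr9 the effect after DZNep less that after Romidepsin was 2.05 (SE 0.780, adjusted p = 0.240), and that after UNC0642 less that after Romidepsin was 1.77 (SE 0.768, adjusted p = 0.343). For Tlr7 the difference between DZNep and Romidepsin was 1.47 (SE 0.598, adjusted p = 0.277). The fall of Tlr7 and Tlr9 was therefore not shown to be particular to Romidepsin. Between the EZH2 inhibitors DZNep and UNC1999, the differences ran from -0.59 for Tlr1 (SE 1.00) to 1.21 for Tlr13 (SE 0.653), with adjusted p from 0.578 to 0.984. Standard errors of this size do not show that the compounds acted alike. Doses, schedules and diluents differed between the inhibitors. By their names, the UNC1999 libraries belonged to series H-50 and the other retina libraries to series G-981. Differences that involve UNC1999, that of Cd14 among them, cannot be told apart from a difference between these series.

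Myd88, the adaptor shared by all of these receptors except Tlr3, did not follow them. It was at 16.0, 14.6, 16.8 and 13.8 CPM in DZNep controls and at 15.5 and 14.9 CPM after DZNep (log2 fold change -0.01, SE 0.0955). After UNC1999 it was at 18.8, 26.0 and 28.6 CPM against 24.9, 22.5 and 17.5 CPM in controls (log2 fold change 0.18, SE 0.181), and after UNC0642 at 32.3 and 31.3 CPM against 34.1 and 28.0 CPM (log2 fold change 0.03, SE 0.113). In all 3 experiments the groups overlapped. After Romidepsin it was at 19.3, 32.2 and 22.5 CPM against 12.9, 23.2 and 19.1 CPM in controls (log2 fold change 0.41, SE 0.248), also with overlap, and adjusted p for the 4 experiments ran from 0.408 to 0.939 by edgeR's quasi-likelihood test. Relative to microglia markers, in contrast, every treated retina was above every control of its experiment. The marker sum itself was lower on average after each inhibitor, so a gene with unchanged CPM also rises in this ratio. The share of all genes with such a rise was not measured, and the ratio is not a level of Myd88 within microglia. The ratio went from a mean of 37.9 ± 8.63 to 57.0 ± 2.49 CPM per 1000 CPM with DZNep, from 49.8 ± 6.61 to 113 ± 31.0 with UNC1999, from 33.9 ± 3.86 to 56.1 ± 15.2 with UNC0642 and from 24.3 ± 3.93 to 46.4 ± 4.00 with Romidepsin (SD, n as above).

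In sorted rods Myd88 was at levels near those of whole retina, whereas the receptors were close to absent. Myd88 was at 15.2 and 11.6 CPM in control rods and at 11.7 and 13.1 CPM after GSK2879552 (114 and 198 against 225 and 130 counts), and the 12 control retinas ranged from 12.9 to 34.1 CPM. The receptors and Cd14 summed to 2.22 and 3.21 CPM in control rods, against 18.5 to 95.2 CPM in control retinas. Rods and retinas differed in mouse line, kit and normalization, so this contrast was not tested.

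Among the receptors, Tlr3 had the most counts in rods (10 and 19 in controls, 14 and 19 after GSK2879552). Tlr2 had 2 and 14 against 3 and 0 counts, Tlr7 had 5 and 1 against 8 and 1, and Cd14 had 7 and 2 against 23 and 1. Tlr1 and Tlr4 were each seen with a single count in 1 control library, Tlr13 with 1 count in each treated library, and Tlr6 and Tlr9 were at 0 in all 4 libraries, which allows up to 0.156 to 0.401 CPM per library. Tlr5, Tlr8, Tlr11 and Tlr12 were at 0 as well.

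Sorted rods still held microglial RNA, since the 16 microglia markers summed to 73.5 to 93.7 CPM in controls and to 77.2 and 79.1 CPM after GSK2879552, with 1 or 2 markers at 0 in a library. Its part in the few receptor counts was not tested. Tlr3, Cd14 and Myd88 passed the filter on low counts, with log2 fold changes after GSK2879552 of 0.08, 0.57 and -0.11 (SE 0.846, 1.36 and 0.327). None was called or had an unadjusted p under 0.05 (against 4.91% of all genes) by edgeR's quasi-likelihood test, and DESeq2 gave an adjusted p only for Myd88 and did not call it, in a comparison with no called gene at all (0%). No change in these genes was detectable in sorted rods at this depth and spread.

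**Figure D4:**
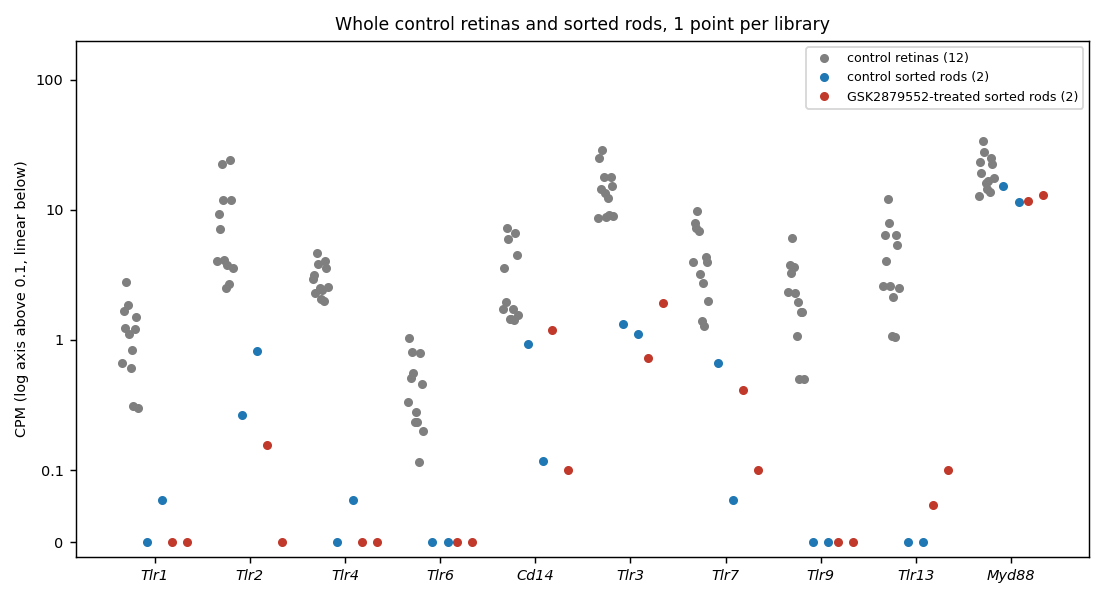
CPM of each gene (vertical axis logarithmic above 0.1 and linear below) in 12 control retinas, 2 libraries of control rods and 2 of GSK2879552-treated rods, 1 point per library. Myd88 in rods lies at 11.6 to 15.2 CPM, at or below the lower end of the retinas, while every receptor and Cd14 in rods lie below all 12 control retinas, and Tlr6 and Tlr9 are at 0.

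Outside the 10 genes, few genes of the pathway passed both thresholds. The lists held 12 accessory proteins and other adaptors, 22 kinases, ligases and transcription factors, 9 negative regulators, 20 inducible target genes and 7 endogenous ligands. After Romidepsin, 1 of 12 accessory genes and 1 of 13 target genes tested passed both thresholds, both higher, where 0.405% of all genes tested were called higher. Socs3, an inhibitor of cytokine signalling, rose to 154 ± 73.0 CPM (log2 fold change 2.79, SE 0.437, adjusted p = 0.0354), and Lbp, which passes lipopolysaccharide to Cd14, rose from 0.791 ± 0.109 to 2.92 ± 0.369 CPM (log2 fold change 1.88, SE 0.256, adjusted p = 0.0277). No gene of the other 3 lists was called. At an unadjusted p under 0.05, 5 of the 13 target genes were higher and 1 was lower, against 9.92% and 9.46% of all genes, with a median log2 fold change of 0.67 over the 13. Of the 12 accessory genes, 5 were lower and 3 higher at that level, with a median of -0.29.

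After UNC1999, 1 of 11 accessory genes passed and none of the other lists did, where 0.0697% of all genes were called lower and 0.298% higher. Of the 13 target genes tested, 12 had a log2 fold change below 0, with a median of -0.51, where 50.4% of all genes were below 0. At an unadjusted p under 0.05 (edgeR quasi-likelihood test), 2 of the 13 were lower, near the share of 11.9% of all genes. The accessory gene that passed was Unc93b1, which escorts Tlr3, Tlr7, Tlr9 and Tlr13 from the endoplasmic reticulum to endosomes. It fell from 12.7 ± 2.62 to 5.98 ± 0.444 CPM (log2 fold change -1.10, SE 0.166, adjusted p = 0.0408, edgeR quasi-likelihood test). After DZNep, 1 of 9 negative regulators and 1 of 6 endogenous ligands passed both thresholds, where 1.02% of all genes were called higher and 0.686% lower. Tnfaip3, a ubiquitin-editing enzyme that limits NF-kB signalling, rose from 148 ± 24.5 (n = 4) to 302 ± 3.15 CPM (n = 2; log2 fold change 1.02, SE 0.121, adjusted p = 0.00115). S100a9, a myeloid protein that binds Tlr4, rose from 0.118 ± 0.113 to 1.16 ± 0.0797 CPM (log2 fold change 3.18, SE 0.587, adjusted p = 0.00651), a low level throughout.

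Smaller changes with an adjusted p under 0.05 and no overlap were seen after DZNep in 8 further genes of these lists. Of the kinases downstream of Myd88, Irak1 had a log2 fold change of -0.33 (adjusted p = 0.00414) and Irak2 one of -0.66 (adjusted p = 0.00349). Tab3, an adaptor of the kinase TAK1, had one of 0.55 (adjusted p = 0.00208), and Tnc, a matrix ligand of Tlr4, one of -0.36 (adjusted p = 0.00353). The other 4 were outside the rule for naming and are given after their values were seen. Unc93b1 was at -0.93 (adjusted p = 0.0334), Icam1 at -0.67 (adjusted p = 0.0323), and Irf3 and Sarm1 at 0.24 and 0.25 (adjusted p = 0.0367 and 0.00740, edgeR quasi-likelihood test). At this threshold without the fold limit, 9.72% of all genes were lower and 12.9% higher after DZNep. After UNC0642 and in sorted rods no gene of these lists passed.

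Across the 22 retinas, with each gene centred on its mean within each experiment, Tlr7 was the gene whose log2 CPM was most like that of Tlr9 (Pearson's r = 0.93). The genes most like Tlr7 were Nfam1 (r = 0.95), Cx3cr1 (0.94), a microglia marker, and Trim34a (0.93), and those most like Tlr13 were Dock2 (0.96), Gusb (0.96) and Lair1 (0.95). Tlr3 stood with Parp14 (0.96), Samd9l (0.96) and Eif2ak2 (0.96), genes known as interferon-induced. Tlr2 was most like Srgn (0.95), Tap2 (0.94) and Tgfb1 (0.94), and Cd14 was most like Gpr84 (0.91), Gcnt1 (0.85) and Msr1 (0.85).

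The likeness to the mean of the microglia markers was highest for Tlr13 (r = 0.94), Tlr7 (0.91) and Tlr1 (0.87), and lowest for Cd14 (0.58), Tlr6 (0.56) and Myd88 (0.06). The nearest gene to Tlr6 reached 0.79 (Plac8). Myd88 was most like Plaur (0.87), Nipsnap3b (0.87) and 2900073G15Rik (0.86). These correlations describe 22 libraries that share treatments, depth and cell makeup, and no test was made of them.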

How the data were processed

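The authors used BBDuk for trimming, HISAT2 2.2.1 for alignment to NCBIM37 (mm9; Ensembl 67) and HTSeq 0.11.2 for counting per gene, per the submitters' processing notes and the methods. The deposited values are raw counts of 37991 genes in 26 libraries, 1 per replicate labelled as biological, with no normalization and no line for unassigned reads. Whole-retina libraries were made with a stranded mRNA kit and rod libraries with a SMART-Seq kit.

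Samples were grouped by their labels. Each treatment was compared with its own controls by edgeR 4.0.16 (R 4.3.3; filterByExpr, TMM, quasi-likelihood F test), adjusted by Benjamini-Hochberg over all genes tested. A call required an adjusted p under 0.05 together with a log2 fold change beyond 1 in either direction. The study used the likelihood ratio test, kept as an alternative. Differences between treatments were contrasts in 1 fit of 22 retinas. CPM values were scaled by TMM over the 22 retinas and, separately, the 4 rod libraries. SDs are over libraries. Log2 CPM used a prior count of 2.

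The alternatives tried were DESeq2 1.42.0, the likelihood ratio test, factors by RLE, no low-count filter, no fold threshold, a block for replicate, all 22 retinas in 1 fit, the 9 controls of library series G-981, and each library left out. The scripts were tested on simulated data.

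Symbols and exon lengths were from GENCODE M1 and the gene table (37205 identifiers matched). The 10 genes and all lists were chosen with earlier results of these data known. Named are the 10 genes, the 4 other Toll-like receptors, up to 6 genes per comparison of the pathway lists with adjusted p under 0.05 and no overlap, and the 3 genes most like each of the 10 (mean CPM at least 1). No pair of replicates was a copy (chi-square per gene at least 3.72 in 23 pairs). Red blood cell, lymphocyte, endothelial, Mueller glia and retinal pigment epithelium markers were measured as well, and their values are given with the other observations.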

Additional observations from a re-analysis of the deposited data

Results flagged for a closer look

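The Cd14 level in the 4 DZNep controls was at 1.44, 1.45, 1.73 and 1.43 CPM. The third control lay apart from the other 3, with a gap to the nearest of 0.960 of the whole range of the group. The range is narrow (SD 0.146 CPM around a mean of 1.52 CPM), and both treated retinas, at 1.05 and 1.30 CPM, were below all 4 controls. Chance marks about 1 in 20 groups in this way.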

How the results depend on the processing

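Calls among the 10 genes depended on the tool, the controls and single libraries. After DZNep, 0 genes were called in the main test, 1 (Tlr1) by the likelihood ratio test and 1 (Tlr1) with no filter on low counts, and 0 to 1 when 1 library was left out. After UNC1999 the count was 0 in the main test, 5 by the likelihood ratio test, 3 by DESeq2, 2 (Tlr7 and Tlr13) with no filter on low counts, 3 with all 22 retinas in 1 fit, and 0 to 7 when 1 library was left out. After UNC0642 it was 0, and 1 (Cd14) with the 9 controls of series G-981, against which Tlr1, Tlr2, Tlr6 and Tlr13 changed direction, to log2 fold changes of 0.15, 1.05, 0.51 and 0.43. After Romidepsin it was 2, and 1 (Tlr9) with those 9 controls, and 0 to 2 when 1 library was left out. In sorted rods it was 0 in every fit. Of the differences between inhibitors, UNC1999 less UNC0642 gave 0 in the main test, 1 (Cd14, adjusted p = 0.0301, edgeR) by the likelihood ratio test, and 0 to 1 with 1 library left out, and UNC1999 less Romidepsin gave 0 to 2 (Tlr2 and Cd14 without the third UNC1999 control). The cause of these changes was not tested.

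After UNC0642 the adjusted p of 4 genes was under 0.05 by edgeR in alternative fits in which their log2 fold changes were within 1, so they were not called. With no filter on low counts it was 0.00267 for Cd14, 0.00212 for Tlr3, 0.00740 for Tlr7 and 0.0311 for Tlr13, and with the replicate block 0.00751, 0.00168, 0.0112 and 0.0258. DESeq2 gave no adjusted p for any of the 10 genes in that comparison. With 1 library left out, signs changed for genes that were not called. Where this left a single library in an arm (treated retinas with DZNep, either arm with UNC0642 and rods), that library was assumed to vary like the other group. Myd88 ran from -0.060 to 0.033 after DZNep, from -0.10 to 0.18 after UNC0642 and from -0.30 to 0.094 in rods. Tlr2 ran from -0.89 to 0.40 after UNC0642 and from -0.51 to 0.15 after Romidepsin. Tlr6 ran from -0.31 to 0.22 after UNC0642, and Cd14 from -0.43 to 2.47 and Tlr3 from -0.73 to 0.66 in rods.

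Replicate numbers were not treated as pairs in the main test. Deviations of same-numbered libraries correlated at -0.21 and 0.02 for DZNep, -0.28, 0.23 and -0.04 for UNC1999, 0.21 for UNC0642, 0.21, -0.05 and -0.28 for Romidepsin and -0.08 for rods. With 2 libraries in each group both numbers give the same correlation. From so few libraries these values cannot exclude pairing. With replicate as a block, 0 genes were called after DZNep, UNC1999, UNC0642 and GSK2879552 and 1 after Romidepsin (Tlr9, with Tlr7 at -1.78 and an adjusted p of 0.0594 by edgeR), and Tlr3 in rods went to -0.0052. With 2 to 4 libraries a group and fewer than 10 counts of several receptors in some libraries, small changes could not be detected.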

Other observations

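Markers of further cell types moved with the treatments. Mueller glia markers were lower without overlap after DZNep (7877 to 8150 CPM in controls, 5405 and 6006 after treatment), UNC0642 (4997 and 6038 against 3872 and 3906) and Romidepsin (6937 to 8606 against 4392 to 5410), and overlapped after UNC1999 (3787 to 5903 against 3825 to 5526). The sum of the endothelial markers was lower without overlap in all 4 retina experiments, at 709 to 753 CPM in controls and 564 and 583 after DZNep, at 532 to 604 and 361 to 468 with UNC1999, at 734 and 831 and 651 and 680 with UNC0642, and at 702 to 903 and 589 to 608 with Romidepsin. Single endothelial markers did not all follow their sum. Log2 fold changes were below 0 in 6 of 6 after DZNep and in 4 of 6 after UNC1999. They were above 0 in 4 of 6 after UNC0642 (median 0.04) and in 3 of 6 after Romidepsin (median -0.002). Retinal pigment epithelium markers were higher without overlap after DZNep (47.9 to 140 CPM in controls, 189 and 223 after treatment), UNC1999 (105 to 120 against 349 to 401) and UNC0642 (52.3 and 107 against 132 and 155), and lower after Romidepsin (68.7 to 80.8 against 43.2 to 54.3).

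Red blood cell markers were lower without overlap after Romidepsin (72.4 to 76.2 CPM in controls, 37.6 to 60.7 after treatment) and overlapped after DZNep (30.5 to 97.8 against 58.4 and 129), UNC1999 (84.0 to 102 against 81.2 to 117) and UNC0642 (117 and 135 against 131 and 145). Lymphocyte markers were low throughout, lower without overlap after Romidepsin (1.14 to 1.54 CPM in controls, 0.636 to 0.991 after treatment) as well as after DZNep, and overlapped after UNC1999 (mean 0.963 ± 0.0698 against 0.952 ± 0.474, SD, n = 3 each) and UNC0642 (1.36 and 2.07 against 1.04 and 1.63). The part of these cell types in the receptor levels was not tested.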
